A study of Cyanidioschyzon merolae with 29 samples.

Results

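The splicing and mRNA processing genes of the red microalga *Cyanidioschyzon merolae* were chosen by words of their gene descriptions in the deposited table of counts. A nuclear gene was a member if its description, in any case, held splicing, spliceosom, snRNP, small nuclear ribonucleoprotein, pre-mRNA, Sm-like, LSm, polyadenylation, mRNA cap, mRNA decapping, poly(A) or DEAD. This gave 54 of the 4738 nuclear genes, in a table of 4984 genes over the nucleus and both organelles. Of these, 47 are called RNA processing genes here, among them 4 DEAD-box helicases whose descriptions name no step of RNA processing. The other 7 entered only through the letters of the word dead: 6 are annotated as dead retroelements and 1 as a DNA-binding protein like dead ringer. No member is described by decapping.

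A new mRNA receives a methylated guanine cap at its 5′ end, loses its introns in the spliceosome and is cut and polyadenylated at its 3′ end. The spliceosome is built from small nuclear RNAs that carry rings of Sm or LSm proteins. The SF3a and SF3b proteins hold the branch point within the U2 particle, PRP8 and the U5 proteins hold the catalytic centre, and helicases such as PRP16, PRP22 and PRP43 drive the later steps. *C. merolae* is known for a very small set of introns and a strongly reduced spliceosome, so few of its mRNAs need most of these factors, whereas the cap and the poly(A) tail are made on mRNAs generally. tRNA introns are removed by a separate endonuclease and ligase.

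Cultures of strain NIES-3377 were grown in acidic, warm medium under continuous light without added Ni or with nickel sulphate at 1 or 3 mM, and poly(A)-selected RNA was sequenced. There were 3 libraries per sampled day from untreated cultures (days 0, 5, 10, 15) and from cultures with 3 mM Ni (days 5, 10, 15). Cultures with 1 mM Ni supplied 3 on day 5, 3 on day 10 and 2 on day 15. The labels give letters and numbers to cultures (C3, 1A, 3C) but do not state how cultures were kept apart, so p-values measure the spread between these libraries.

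The 29 libraries held 2602444 to 4067107 counts (median 3121668), with 4849 to 4910 genes detected, and between 2.10% and 6.82% of counts on chloroplast genes. Of 40 photosystem, phycocyanin and light-harvesting genes used as an identity check, 38 were detected in every library. Normalised values are in CPM, the count of a gene relative to the TMM-adjusted size of its library (TMM factors 0.810 to 1.11). A gene was called a DEG when its adjusted p in the edgeR quasi-likelihood fit of all libraries, adjusted by Benjamini and Hochberg over 4796 tested genes, was under 0.05. Several libraries stood apart from their group. Untreated culture C1 of day 15 differed from C3 and C4 by a root mean square log2 difference of 1.04 and 0.975, against 0.391 between those. Untreated culture C3 of day 5 differed from C4 and C5 by 0.766 and 0.724, against 0.274 between those. At 3 mM Ni on day 10, culture 3C differed from 3A and 3B by 0.510 and 0.519, against 0.197 between those. At 3 mM Ni on day 5, culture 3C differed from 3D and 3E by 0.470 and 0.486, against 0.1965 between those. Untreated culture C4 of day 0 differed from C1 and C2 by 0.545 and 0.540, against 0.261 between those. New calls are given for the fits without untreated C1 of day 15, untreated C3 of day 5 or 3C of day 10. For the libraries 3C of day 5 and C4 of day 0, only calls lost without them are given.

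All 47 RNA processing genes were expressed at a level that could be tested, while 3 of the 6 retroelement rows had too few counts. *CMI189C* had 0 to 2 counts per library, *CMS107C* 0 to 2 and *CMK093C* 0 to 4. Per kilobase of gene, the highest mean level belonged to *CMP335C*, which encodes Snu13, a protein shared by the U4 snRNP and box C/D snoRNPs, with 294.8 CPM per kb. It was followed by *CMP159C*, a small nuclear ribonucleoprotein family protein (216.9 CPM per kb), the SR-type splicing factor RSp31 *CMO009C* (196.0 CPM per kb) and the Sm-like protein LSm1 *CMT394C* (182.5 CPM per kb). The lowest of the RNA processing genes was *CMK254C*, the Sen54 subunit of the tRNA splicing endonuclease, with 22.3 CPM per kb. Among 3′ end genes *CMF161C*, like the 30 kD subunit 4 of the cleavage and polyadenylation specificity factor (CPSF), was highest (164 CPM per kb), in the cap group the cap binding protein 80 gene *CMJ189C* (47.7 CPM per kb), in tRNA splicing the RtcB ligase *CME059C* (89.9 CPM per kb) and among DEAD-box helicases *CMQ338C* (102.9 CPM per kb).

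**Figure D1:**
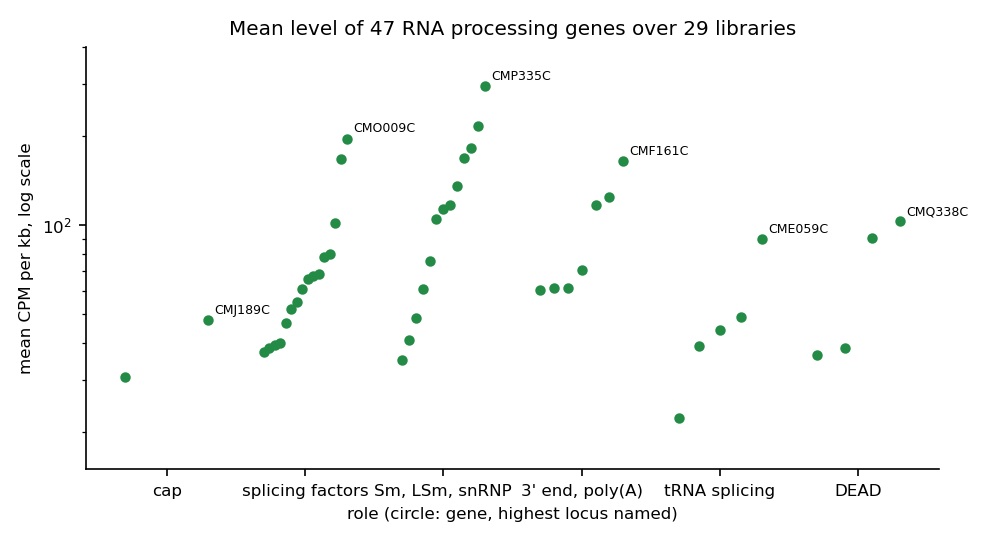
Mean level of the 47 RNA processing genes over the 29 libraries, in CPM per kilobase of gene on a log axis, grouped by role with 1 circle per gene. *CMP335C* at 294.8 is highest, and the cap genes at 30.6 and 47.7 lie in the lower range.

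Together, the 54 members took between 0.50% and 0.677% of the nuclear counts of a library (median 0.617%). The share was 0.523% ± 0.0253 (SD, n = 3) on day 0 and 0.615% ± 0.0214 (SD, n = 3) in untreated cultures of day 5. At 3 mM Ni it was 0.657% ± 0.00755 (SD, n = 3) on day 5, above all untreated libraries of that day, and 0.602% ± 0.00873 (SD, n = 3) on day 10, below the untreated 0.622% ± 0.00503 (SD, n = 3). A two-sided exact permutation test gave p = 0.1 for both (adjusted p = 0.3 over 6 comparisons), the smallest p that 3 against 3 libraries allow. On day 15 and at 1 mM Ni the exact p lay between 0.3 and 0.9. In bulk RNA of a culture, fewer cells that express a gene and less RNA per cell cannot be told apart.

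The first question was which members respond to Ni, with each dose set against the untreated cultures of the same day. At 1 mM Ni, edgeR called no member on any day, where 0.48% of all tested genes were called on day 5, 0.146% on day 10 and 0% on day 15. At an unadjusted p under 0.05 there were 10, 5 and 4 of 51 members on days 5, 10 and 15, beside 1128, 420 and 436 of 4796 genes. DESeq2 called 1 member, downregulated, on day 5 and 0 on the other days. The day 5 count rested on untreated culture C3: without it, 14 members were called, 3 higher and 11 lower, beside 29.7% of all genes. Without untreated culture C1 of day 15, 2 were called on day 5, beside 6.39% of all genes.

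At 3 mM Ni on day 5, 4 members were upregulated, where 5.42% of all genes were, and 1 was downregulated, where 4.77% of all genes were. On day 10, 4 members were upregulated (15% of all genes) and 4 downregulated (14.2% of all genes). On day 15, 2 were upregulated (5.71% of all genes) and 2 downregulated (4.59% of all genes). As shares of the 51 tested members this was 9.8%, 15.7% and 7.84% on days 5, 10 and 15, against 10.2%, 29.2% and 10.3% of the 4796 genes. Members had a median log2 fold change of −0.02, −0.15 and −0.04, beside −0.04, −0.02 and −0.04 for all genes. Without the 7 rows matched by the word dead, 3, 7 and 1 of 47 genes were called. These counts moved with single libraries, as did those of all genes. On day 5 there was 1 call among the members without untreated C4 (4.46% of all genes) and 7 calls without untreated C3 (13.7% of members and 24.1% of all genes). On day 10 there was 1 call without 3A (15.2% of all genes) and 12 calls without untreated C1 of day 15 (23.5% and 36.6%). On day 15 there were 0 calls without 3D (1.19% of all genes), 1 without untreated C1 of day 15 (3.05% of all genes) and 6 without untreated C3 of day 5 (11.8% and 13.6%). In each of these fits the share of members called was below that of all genes, in some by little (11.8% and 13.6%). The fits have most libraries in common, and a difference in share was not tested.

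**Figure D2:**
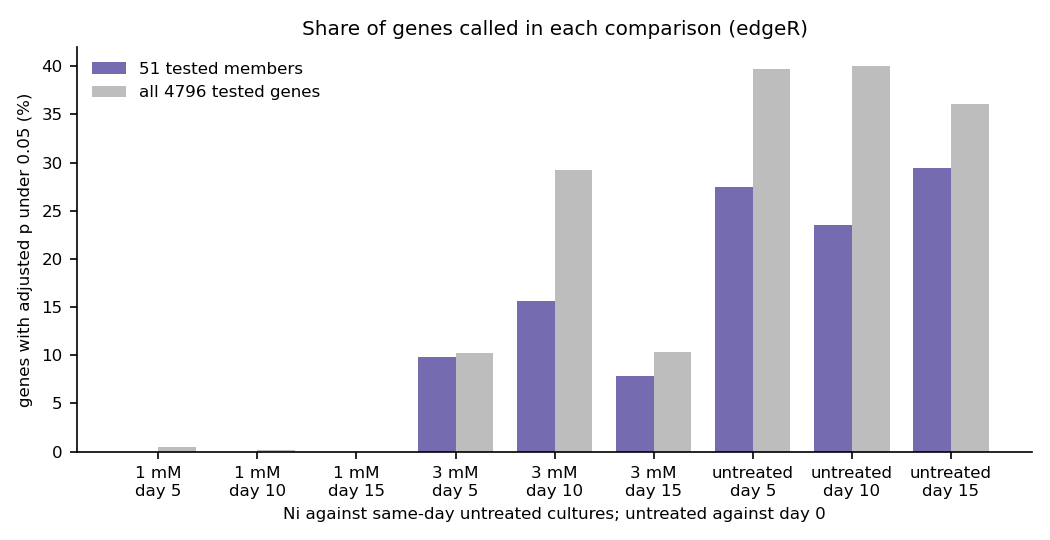
Percent of genes with an adjusted p under 0.05 in edgeR, for 51 tested members and for all 4796 tested genes, in 6 comparisons of Ni with the same-day untreated cultures and 3 of untreated cultures with day 0. Members reach 15.7% at 3 mM Ni on day 10, where all genes reach 29.2%.

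The 16 genes of splicing and pre-mRNA factors include *CMO312C*, described as like the cleavage complex II protein Clp1, which by name belongs to 3′ end cleavage. Of the 16, *CMB002C* was the clearest. It encodes the probable SF3b subunit 1, the large scaffold of SF3b that closes around the branch point, and lies on chromosome 2 from 3437 to 6301 (ASM9120v1). In untreated cultures it had 220, 217 and 220 CPM on day 5, 215, 266 and 260 CPM on day 10, and 246, 237.7 and 263 CPM on day 15. At 3 mM Ni it had 139, 138 and 156 CPM on day 5, 134, 116 and 185 CPM on day 10, and 188, 179 and 192 CPM on day 15. Every library at 3 mM Ni was below every untreated library of its day, and culture 3C of day 10 was the closest to the controls on that day.

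*CMB002C* was downregulated at 3 mM Ni by log2 fold changes of −0.61 ± 0.13 (SE) on day 5 (edgeR adjusted p = 0.00438), −0.77 ± 0.13 on day 10 (adjusted p = 2.81e-04) and −0.42 ± 0.13 on day 15 (adjusted p = 0.0364). It was the only member called on all 3 days, where 36 of all tested genes were downregulated and 73 upregulated on all 3. The calls of days 5 and 10 held without any 1 of their own 6 libraries, with adjusted p up to 0.0286 and 0.00397. The day 10 call also held in the 8 other fits tried, while that of day 5 was lost when only the compared conditions were fitted (adjusted p = 0.0567). The day 15 call was lost without untreated C1 (adjusted p = 0.0838), untreated C4 (0.0699), 3C (0.0941), 3D (0.136) or 3E (0.0827), and without untreated C1 or C2 of day 0 (0.0510 and 0.0512). It was lost as well with at least 10 counts in every library (0.0513), with limma-voom and culture label as a block (0.0501) and with only the compared conditions (0.257). The day 10 response did not differ from that of day 5 (−0.16 ± 0.18, adjusted p = 0.952) or day 15 (0.35 ± 0.18, adjusted p = 0.244) beyond its error.

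At 1 mM Ni *CMB002C* had 196, 196 and 213 CPM on day 5, 191, 190 and 212 CPM on day 10, and 220 and 217 CPM on day 15. On each day these libraries lay between those at 3 mM Ni and the untreated ones, without overlap. The log2 fold changes against untreated cultures, −0.12, −0.32 and −0.19, did not pass the test (adjusted p = 0.576, 0.439 and 0.667). Between the doses, *CMB002C* was lower at 3 mM than at 1 mM Ni on day 10 (−0.45 ± 0.13, adjusted p = 0.0318), which was the only one of the 51 members called among 8.55% of all genes. That call was lost without 1A, 1B, 1D, 3A or 3B (adjusted p = 0.0736 to 0.237). Without 3C, 7 members differed between the doses on that day, 13.7% of members beside 18.3% of all genes. On day 5 the dose difference of *CMB002C* was −0.49 ± 0.13 (adjusted p = 0.124, and 0.0341 without 3C of day 10). No member differed between the doses on day 5 or 15, where 0.0834% and 0% of all genes did. DESeq2 called 0 members on both days.

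The genes of the other SF3b and SF3a subunits were not called with all libraries. On day 10 at 3 mM Ni, log2 fold changes were −0.33 for subunit 3 of SF3b (*CML103C*, edgeR adjusted p = 0.0991) and −0.24 for subunit 4 (*CME063C*). SF3b subunit 2 (*CMT357C*) had 80.6, 85.1 and 83.2 CPM in untreated and 60.5, 71.7 and 82.0 CPM in 3 mM cultures. SF3a subunit 3 (*CMQ406C*) had 101, 106 and 121 against 96.7, 83.7 and 100 CPM. For SF3a subunit 2, *CMH102C* had 13.5, 23.8 and 18.2 against 22.6, 23.2 and 22.4 CPM. *CMN095C*, with that description too, had 19.0, 30.3 and 22.4 against 20.6, 24.7 and 23.7 CPM. None of the genes for SF3b subunits 2, 3 and 4 or SF3a subunits 2 and 3 was called at either dose. Without untreated C3 of day 5, *CME063C* (−0.69), SF3b subunit 2 *CMT357C* (−0.43) and SF3a subunit 3 *CMQ406C* (−0.42) were lower at 1 mM Ni on day 5 (adjusted p = 0.0322, 0.0337 and 0.0412). A difference between subunits was not tested. The gene for PRP8, the centre of the spliceosome (*CMH168C*), had 296, 243 and 317 CPM in untreated cultures and 222, 216 and 245 CPM at 3 mM Ni on day 10, with 1 treated library inside the untreated range and no call. *CMH168C* overlaps another annotated gene, as do *CML192C*, *CMQ077C* and *CMQ338C*, and counting by strand separates such pairs only where their strands differ.

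The helicase PRP22, which releases the spliced mRNA, is encoded by *CMG044C* (chromosome 7, 119414 to 123292). Untreated cultures of day 10 had 233, 211 and 199 CPM, and those at 3 mM Ni had 153, 132 and 198 CPM. All treated libraries were lower, 3C by a narrow margin. *CMG044C* was downregulated (−0.41 ± 0.13, edgeR adjusted p = 0.0169), but not without untreated C1 (0.0895), 3A (0.0761) or 3B (0.138), while without 3C the fall was −0.59 (adjusted p = 9.08e-04). On days 5 and 15 the log2 fold changes were −0.22 and −0.13 with no call.

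RSp31, a plant-type SR protein (*CMO009C*), showed large but uneven differences. On day 10 it had 192, 177 and 167 CPM in untreated cultures, 83.6, 76.9 and 129 CPM at 1 mM Ni and 70.8, 72.5 and 154 CPM at 3 mM Ni. All treated libraries lay below the untreated ones, with log2 fold changes of −0.88 ± 0.37 at 1 mM (adjusted p = 0.465) and −0.85 ± 0.37 at 3 mM (adjusted p = 0.0881). Without 3C the value at 3 mM was −1.32 and passed the test (adjusted p = 0.0138), and without untreated C1 of day 15 it was −0.85 (adjusted p = 0.0238).

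SC35 (*CML202C*), the other SR family factor, was not called at 3 mM Ni with all libraries. On day 5 the untreated cultures had 137, 56.3 and 51.2 CPM, the 1 mM cultures 113, 117 and 105 CPM and the 3 mM cultures 141, 121 and 101 CPM. Only C3 of the untreated libraries reached the treated level. Without C3 the log2 fold change was 1.06 at 1 mM (adjusted p = 0.0104) and 1.17 at 3 mM Ni (adjusted p = 0.00624), against 0.45 and 0.57 with it (adjusted p = 0.381 and 0.247). On day 10 *CML202C* was 0.86 higher at 3 mM than at 1 mM Ni on the log2 scale, called without untreated C3 of day 5 (adjusted p = 0.0290) or untreated C1 of day 15 (0.0344) and not with all libraries (0.0843).

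**Figure D3:**
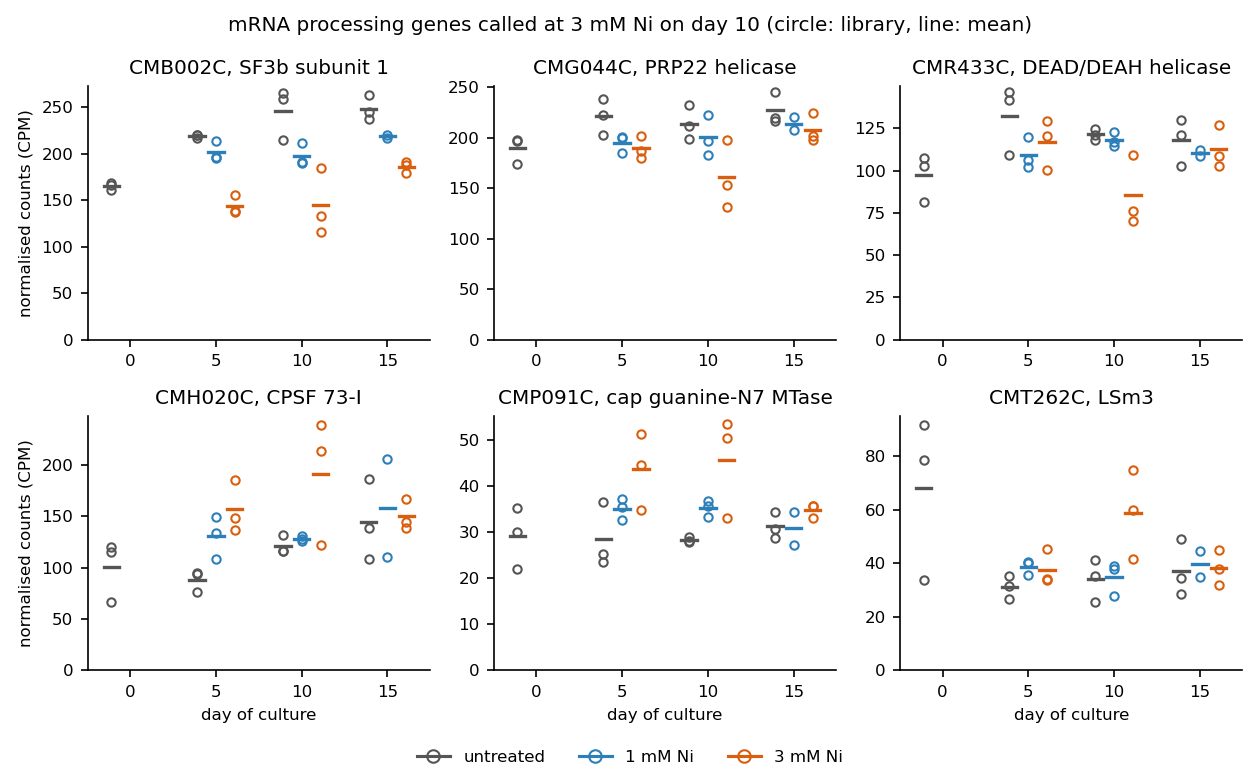
CPM of 6 members called at 3 mM Ni on day 10, by day of culture, for untreated, 1 mM and 3 mM Ni cultures; each circle is a library and each line a mean. *CMB002C*, *CMG044C* and *CMR433C* were lower at 3 mM on day 10 and *CMH020C*, *CMP091C* and *CMT262C* higher, with 3C the treated library nearest to the controls in each.

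In the cap group, the cap guanine-N7 methyltransferase, which completes the cap by methylating its guanine, is encoded by *CMP091C* (chromosome 16, 221899 to 223020). On day 10 it had 28.95, 28.0 and 27.8 CPM in untreated cultures, 36.6, 33.3 and 35.7 CPM at 1 mM and 50.5, 53.6 and 33.0 CPM at 3 mM Ni. All 6 treated libraries were above the untreated ones. The log2 fold change at 3 mM Ni was 0.69 ± 0.19 (edgeR adjusted p = 0.0107), lost without 3A (0.0566) or 3B (0.0792). That at 1 mM Ni, 0.32, was not called (adjusted p = 0.674).

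On day 5 *CMP091C* had 25.2, 23.5 and 36.5 CPM in untreated cultures and 44.6, 51.3 and 34.9 CPM at 3 mM Ni, so that 1 treated library fell within the untreated range. It was upregulated by 0.62 ± 0.20 (edgeR adjusted p = 0.0472), a call that was lost without untreated C3 or C4, 3C or 3D (adjusted p = 0.0811 to 0.206) and without any of 13 libraries of other conditions (0.0503 to 0.0584). It was also lost with nuclear genes only (0.0540), with limma-voom, without and with culture label as a block (0.0525 and 0.0536), and with only the compared conditions (0.177). On day 15 the value was 0.16 with no call. The gene of cap binding protein 80 (*CMJ189C*), the large subunit of the nuclear cap-binding complex, stayed without a call at both doses, at log2 fold changes from −0.10 to 0.41.

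By the words of their descriptions, 7 genes were grouped under 3′ end formation and the poly(A) tail, without *CMO312C*. Among them the gene for CPSF 73-I, the endonuclease that cuts the pre-mRNA (*CMH020C*, chromosome 8, 57784 to 60033), was upregulated at 3 mM Ni on days 5 and 10. On day 5 untreated cultures had 94.6, 75.7 and 93.8 CPM, those at 1 mM 150, 133 and 108 CPM and those at 3 mM 185, 149 and 137 CPM. All 6 treated libraries exceeded the untreated ones. The log2 fold change at 3 mM was 0.83 ± 0.25 (edgeR adjusted p = 0.0355), not called without untreated C4 (0.145) or C5 (0.0917), 3C (0.170) or 3D (0.0655). At 1 mM it was 0.57 (adjusted p = 0.183).

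On day 10 *CMH020C* had 132, 116 and 116 CPM in untreated cultures and 214, 239 and 122 CPM at 3 mM Ni, with 3C inside the untreated range. The rise of 0.66 ± 0.25 (adjusted p = 0.0462) was lost without any untreated library of that day, 3A or 3B (0.0660 to 0.244) and without any of 9 libraries of other conditions (0.0511 to 0.0545). It was also lost with limma-voom, without and with culture label as a block (0.0688 and 0.0746), and with only the compared conditions (0.0579). Without 3C it was 0.90 (adjusted p = 0.00646). The CPSF 30 kD gene *CMF161C* had 50.4, 79.5 and 52.0 CPM in untreated cultures and 93.1, 95.9 and 135 CPM at 3 mM Ni on day 10, without overlap, at 0.84 ± 0.32 and just outside the threshold (adjusted p = 0.0519). It was called without untreated C3 of day 5 (0.0195) or untreated C1 of day 15 (0.0294). The other 5 genes of this group, among them the nuclear poly(A) polymerase *CMQ424C* and the poly(A) ribonuclease subunit *CMJ136C*, were not called at 3 mM Ni, with log2 fold changes of −0.49 to 0.34 over the 3 days.

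The 13 Sm, LSm and snRNP genes gave 1 call at 3 mM Ni with all libraries. LSm3, part of the ring on U6 snRNA, is encoded by *CMT262C* (chromosome 20, 649577 to 649885), which had 25.5, 41.2 and 35.2 CPM in untreated cultures of day 10, 27.6, 38.0 and 38.8 CPM at 1 mM and 59.8, 75.0 and 41.6 CPM at 3 mM Ni. The 3 mM libraries were higher, 3C by a narrow margin. It was upregulated by 0.80 ± 0.28 (edgeR adjusted p = 0.0362), not without untreated C1 (0.147) or C5 (0.0789), 3A (0.0913) or 3B (0.208).

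The rest of the LSm and Sm genes were not called on day 10 at 3 mM Ni with all libraries, and a difference from *CMT262C* was not tested. LSm6 (*CMP138C*) had 43.2, 52.4 and 41.7 CPM in untreated cultures and 57.2, 63.3 and 40.1 CPM in 3A, 3B and 3C. On day 10 at 3 mM Ni the log2 fold changes were 0.23 for LSm6, −0.13 for LSm7 (*CMP206C*) and −0.15 for LSm1 (*CMT394C*). The yeast namesake of LSm1 belongs to the cytoplasmic ring in mRNA decay, and the ring of the *CMT394C* protein was not tested. Values were −0.27 and 0.05 for the other U6-associated proteins *CMG061C* and *CMT545C*, and −0.49 and −0.19 for the snRNP family genes *CMB130C* and *CMP159C*. *CMB130C* was called without untreated C1 of day 15 (adjusted p = 0.0403). The U5 genes *CML192C* (200 kDa helicase, which unwinds U4 from U6), *CMK208C* and the Dim1 pair *CMN033C* and *CMS018C* lay between −0.42 and 0.31 on that day without a call. Members of the pairs *CMN033C* and *CMS018C*, *CMG061C* and *CMT545C*, and *CMB130C* and *CMP159C* carry the same description, and reads that align to several places are left out by default in the counting, so their counts are uncertain where sequences are shared.

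The day 5 calls of *CMP335C* (Snu13), the most abundant member per kilobase, depended on untreated C3. Untreated cultures had 149, 46.98 and 48.3 CPM, those at 1 mM Ni 121, 126 and 138 CPM and those at 3 mM Ni 130, 71.4 and 69.8 CPM. All 6 treated libraries lay above C4 and C5 and below C3. The 130 CPM at 3 mM Ni came from 3C, which itself stood apart from 3D and 3E, and no fit left out C3 and 3C together. The log2 fold changes of 0.65 at 1 mM and 0.14 at 3 mM Ni were not called (edgeR adjusted p = 0.212 and 0.800), but without C3 they were 1.43 (adjusted p = 6.99e-04) and 0.92 (adjusted p = 0.0115). On day 15 *CMP335C* had 244, 161 and 165 CPM in untreated and 104, 118 and 122 CPM in 3 mM cultures. The groups did not overlap, and the value of −0.73 was not called (adjusted p = 0.130), but was called without untreated C3 of day 5 (adjusted p = 0.0257). Also without C3, *CMP159C* (−0.81, adjusted p = 0.00515) and *CMT394C* (−0.67, adjusted p = 0.00615) were lower at 1 mM Ni on day 5, *CMT394C* without untreated C1 of day 15 too (−0.56, adjusted p = 0.0413), against adjusted p = 0.117 and 0.0862 with all libraries. In the fit without C3, 29.7% of all genes were called on day 5 for the lower dose and 24.1% for the higher.

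In tRNA splicing, *CMK254C* for the Sen54 subunit had 17.0, 26.8 and 19.6 CPM in untreated cultures and 37.6, 36.4 and 25.6 CPM at 3 mM Ni on day 10. The third treated library, 3C, lay within the untreated range. It was upregulated by 0.65 ± 0.24 (edgeR adjusted p = 0.0423), not without untreated C1 (0.146) or C5 (0.127), 3A (0.154) or 3B (0.150). The genes for Sen2 (*CMN231C*), Sen34 (*CMH233C*), Sen1 (*CMP054C*) and RtcB (*CME059C*) were not called at 3 mM Ni, and none of the 5 genes at 1 mM Ni.

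Among 4 DEAD-box helicases, *CMR433C* (chromosome 18, 1067439 to 1070522) had 125, 118 and 121 CPM in untreated cultures, 117, 114 and 123 CPM at 1 mM and 70.1, 76.2 and 109 CPM at 3 mM Ni on day 10. All 3 mM libraries were below the controls, 3C least, while the 1 mM libraries overlapped with them. It was downregulated by −0.51 ± 0.15 (edgeR adjusted p = 0.0157), not without untreated C1 (0.0557), 3A (0.108) or 3B (0.0914), and by −0.73 without 3C (adjusted p = 8.95e-04). *CMS248C*, a DEAD/H box protein, had 160, 124 and 132 CPM in untreated cultures and 202, 194 and 187 CPM at 3 mM Ni on day 10. The groups did not overlap, but the log2 fold change of 0.49 ± 0.19 missed the threshold (adjusted p = 0.0578). *CMS248C* was called without untreated C3 of day 5 (0.0284) or untreated C1 of day 15 (0.0308).

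The rows that entered through the word dead were mostly low in counts, and the retroelements among them had the largest fold changes of the members called at 3 mM Ni. The retroelement *CMP121C* had 10, 7 and 7 counts in untreated and 26, 44 and 40 counts in 3 mM cultures of day 5, and 0, 7 and 2 against 22, 29 and 18 counts on day 15. It was upregulated by 1.92 ± 0.54 on day 5 (edgeR adjusted p = 0.0234) and by 2.70 ± 0.64 on day 15 (adjusted p = 0.0137), lost on day 5 without untreated C4 or C5 or 3D (0.0760 to 0.102) and on day 15 without 3D (0.0658). *CMO157C* had 1, 4 and 6 against 11, 13 and 16 counts on day 5, an upregulation of 1.57 ± 0.50 (adjusted p = 0.0493) that was lost without any 1 of its own libraries (0.0554 to 0.117) or any of 15 others (0.0501 to 0.0604), with DESeq2 (0.0648) and with only the compared conditions (0.163). On day 15 it had 0, 2 and 2 against 10, 9 and 8 counts and was called (adjusted p = 0.0187), with all untreated libraries at or under the floor of 3 counts. That call was lost without untreated C1 (0.0666), 3D (0.0644) or 3E (0.0613). *CMJ290C* was downregulated on day 10 (−0.99 ± 0.36, adjusted p = 0.0414) from 52, 27 and 41 to 14, 33 and 13 counts, with overlap, and not without untreated C1 or C5, 3A or 3C (0.107 to 0.146) or any of 3 others (up to 0.0535). The 6 retroelements share a description, and reads aligned to several of them are left out.

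*CMM307C*, described as like the DNA-binding protein dead ringer, had 647, 509 and 612 CPM in untreated and 372, 407 and 413 CPM in 3 mM cultures of day 15. It was downregulated by −0.57 ± 0.17 (edgeR adjusted p = 0.0343), without overlap, and the call was lost without untreated C1 or C4, 3C, 3D or 3E (0.0543 to 0.123) or untreated C1 or C2 of day 0 (0.0512 and 0.0521). It has no stated role in RNA processing.

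A change of the 3 mM response between successive days was called for 0 members in edgeR, from day 5 to 10 as from day 10 to 15, where 0% of all genes were called in both. DESeq2 called 0 members for both changes. Without 3C of day 10, *CMB002C* (0.56, adjusted p = 0.0239) and *CMR433C* (0.67, adjusted p = 0.0378) had a higher response on day 15 than on day 10. These were 3.92% of the members, where 9.6% of all genes were called in that fit.

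**Figure D4:**
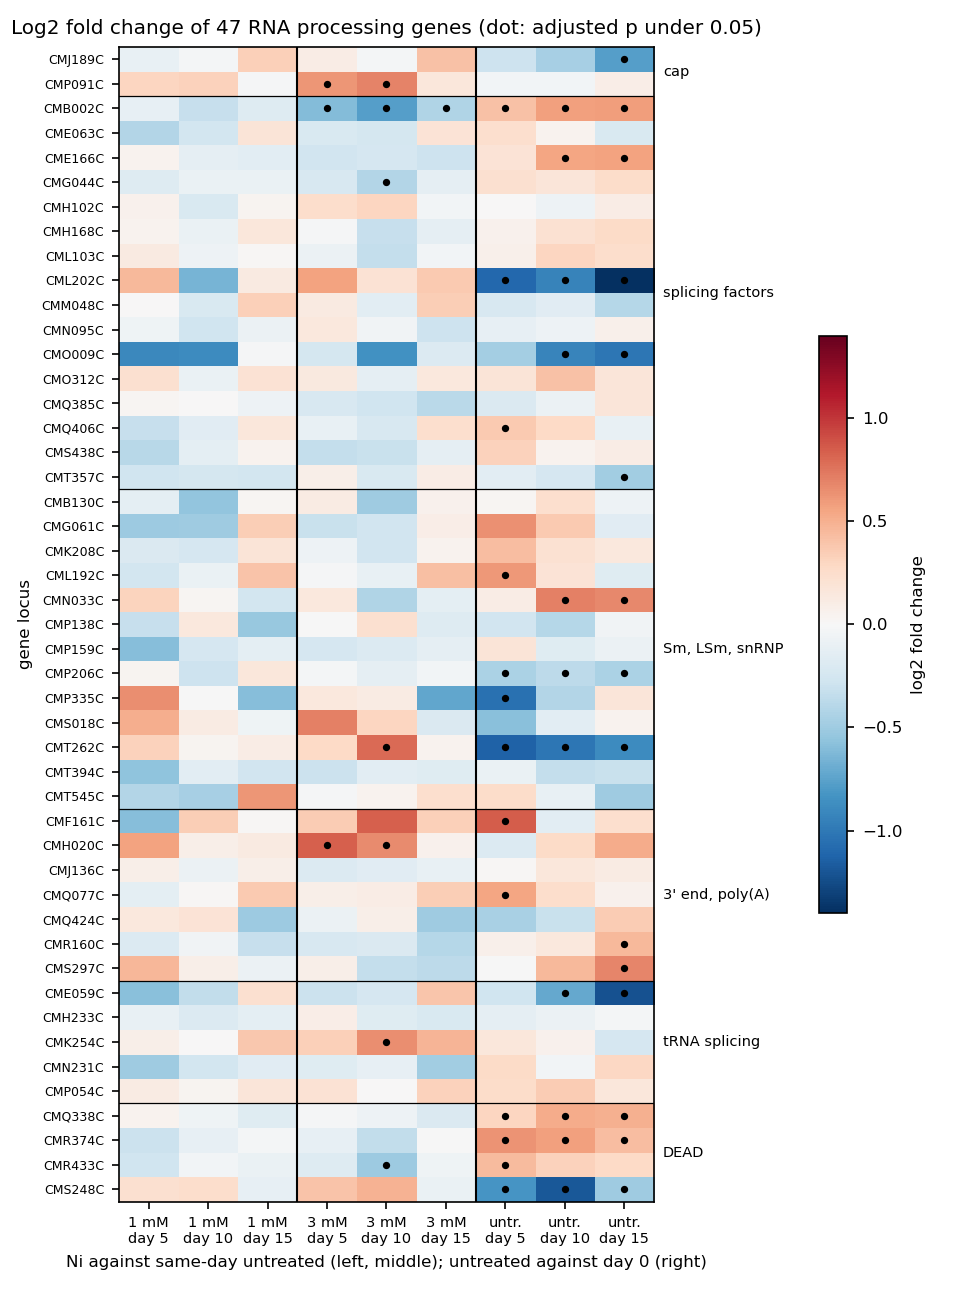
Log2 fold changes of the 47 RNA processing genes by role, for 1 mM and 3 mM Ni against same-day untreated cultures and for untreated cultures against day 0; red is higher, blue lower, and dots mark an adjusted p under 0.05. *CMB002C* is lower on all 3 days at 3 mM and higher than day 0 in untreated cultures, and *CML202C* and *CMT262C* are lower than day 0 on all 3 days.

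The second question was how the members vary with the age of an untreated culture. The 3 comparisons share the day 0 libraries, so they are not independent. On day 5, 9 members were higher than on day 0, where 20.3% of all genes were, and 5 lower, where 19.4% of all genes were. On day 10, 6 were higher (21.1% of all genes) and 6 lower (18.9% of all genes), and on day 15, 7 were higher (19.5% of all genes) and 8 lower (16.6% of all genes). The shares of members called, 27.5%, 23.5% and 29.4%, were below those of all genes, 39.7%, 40.0% and 36.1%, a difference that was not tested. Without C3 of day 5 the day 5 count was 18 (35.3% of members and 46.8% of all genes), and without C4 of day 5 it was 6 (11.8% and 28.7%). Without C2 of day 0 the counts of days 10 and 15 were 7 (13.7% and 31.7%) and 9 (17.6% and 27.6%).

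Both SR-type factors fell. *CML202C* had 184, 193 and 149 CPM on day 0, and later 137, 56.3 and 51.2 CPM on day 5, 68.1, 127 and 80.4 CPM on day 10, and 32.1, 82.3 and 83.3 CPM on day 15. All later libraries were below all of day 0, and C3 of day 5 was the nearest. The log2 fold changes were −1.10, −0.94 and −1.39 (edgeR adjusted p = 0.00779, 0.0194 and 0.00177). The call of day 15 held without any 1 of its own libraries. That of day 5 was lost without C4 or C5 (0.0542 and 0.0611), and that of day 10 without C1 or C2 of day 0 or C1 or C5 of day 10 (0.0509 to 0.0942). *CMO009C* went from 322, 341 and 356 CPM on day 0 to 192, 177 and 167 CPM on day 10 and 58.3, 262 and 181 CPM on day 15, without overlap. Its falls were −0.93 on day 10 and −1.02 on day 15 (edgeR adjusted p = 0.0467 and 0.0340). The day 10 fall was lost without any of the 6 libraries of its comparison (0.0733 to 0.119). It was kept without C1 of day 15 (−0.93, adjusted p = 0.0101). The day 15 fall was lost without C1 of day 15 (−0.62, adjusted p = 0.143). The day 15 fall was also lost without any library of day 0 or C4 of day 15 (0.0544 to 0.0691), and the day 10 fall without any of 9 libraries of other conditions (0.0503 to 0.0541) and with limma-voom, without and with culture label as a block (0.0690 and 0.0696).

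*CMB002C* moved the other way with age, from 169, 161 and 166 CPM on day 0 to 215 CPM or more in every later untreated library. It rose by 0.40, 0.58 and 0.59 on days 5, 10 and 15 (edgeR adjusted p = 0.0137, 9.84e-04 and 0.00110), and each call held without any 1 of its own 6 libraries. At 3 mM Ni on day 5, all 3 libraries (138 to 156 CPM) were also below those of day 0. The helicase PRP43, which takes apart the spliceosome after splicing, is described for 2 genes. *CME166C* went from 112, 103 and 125 CPM on day 0 to 177, 156 and 163 CPM on day 10 and 174, 155 and 173 CPM on day 15, rises of 0.55 and 0.56 (adjusted p = 0.00192 and 0.00213) that held without any 1 of their libraries. *CMM048C* was not called on any day (−0.40 to −0.16). *CMQ406C*, SF3a subunit 3, was 0.36 higher on day 5 (adjusted p = 0.0499), a call that was lost without C1 or C4 of day 0 or C4 or C5 of day 5 (0.0744 to 0.205) or any of 19 other libraries (0.0504 to 0.121). It was also lost in 7 of 8 other fits, DESeq2 among them (0.0612). SF3b subunit 2 (*CMT357C*) fell on day 15 by a log2 fold change of −0.49 (adjusted p = 0.0131), lost without C2 of day 0 (0.0508).

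Of the LSm genes, *CMT262C* (LSm3) had 78.6, 91.7 and 33.8 CPM on day 0, so that C4 of day 0 was at the later level. The 9 later libraries had 25.5 to 49.1 CPM. The falls were −1.13, −1.01 and −0.88 (edgeR adjusted p = 0.00349, 0.00708 and 0.0189). Without C2 of day 0 they were −0.85 (0.0396), −0.72 (0.0725) and −0.60 (0.145), and the day 15 call was also lost without C1 of day 0 or C3 or C4 of day 15 (0.0529 to 0.0812). *CMP206C* (LSm7) fell from 88.8, 96.8 and 91.2 CPM to between 62.3 and 82.7 CPM in all 9 later libraries, by −0.45, −0.36 and −0.45 (adjusted p = 0.00242, 0.00992 and 0.00286), with only the day 10 call lost, without C1 of day 10 (0.0625). *CMP335C* (Snu13) stood at 169, 170 and 168 CPM on day 0 and at 149, 46.98 and 48.3 CPM on day 5. Its fall of −1.05 ± 0.32 (adjusted p = 0.0113) was −1.83 without C3 (adjusted p = 6.82e-06) and was lost without C4 or C5 (0.0801 and 0.0839). On days 10 and 15 it was not called.

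U5 genes rose in part. *CML192C* was 0.61 higher on day 5 (edgeR adjusted p = 0.0269), lost without C2 of day 0 or C4 or C5 of day 5 (0.0815 to 0.117) or any of 3 other libraries (0.0544 to 0.0571). *CMN033C* (Dim1, a thioredoxin-like U5 protein) had 21.4, 28.5 and 21.6 CPM on day 0, 45.9, 25.3 and 45.4 CPM on day 10 and 43.2, 40.2 and 31.1 CPM on day 15. It rose by 0.71 and 0.67 (adjusted p = 0.0105 and 0.0170), lost without C1 or C5 of day 10 (0.0566 and 0.0587), or C1 or C4 of day 0 or C1 of day 15 (0.0572 to 0.0678). Its partner by description, *CMS018C*, was not called.

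Cap and 3′ end genes gave single-day calls. *CMJ189C* (cap binding protein 80) had 201, 184 and 201 CPM on day 0 and 41.3, 155 and 145 CPM on day 15. It fell by −0.77 ± 0.25 (edgeR adjusted p = 0.0193), and by −0.38 without C1 of day 15 (adjusted p = 0.0146). On day 5, *CMF161C* was 0.84 higher (adjusted p = 0.0420) and *CMQ077C*, CPSF subunit 2, 0.56 higher (adjusted p = 0.0219), both lost without C4 (0.251 and 0.0932) or C5 (0.136 and 0.105) of that day, *CMF161C* also without C1 or C2 of day 0 (0.162 and 0.125) or any of 3 other libraries (0.0606 to 0.0649), and *CMQ077C* without C4 of day 0 (0.0800). The call of *CMF161C* was also lost in 5 of 8 other fits (0.0504 to 0.189). On day 15, *CMS297C*, a CPSF subunit, was 0.69 higher (adjusted p = 0.0162) and the FIP1 gene *CMR160C* 0.46 higher (adjusted p = 0.0110). *CMS297C* lost its call without C2 or C4 of day 0 or C3 of day 15 (0.0516 to 0.0958), and *CMR160C* without C1 of day 15 (0.24, adjusted p = 0.115).

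The RtcB ligase gene *CME059C*, whose protein joins the exons of cut tRNAs, had 222, 243 and 199 CPM on day 0, 118, 145 and 142 CPM on day 10 and 44.98, 124 and 114 CPM on day 15. Its falls were −0.72 ± 0.25 on day 10 (edgeR adjusted p = 0.0243) and −1.22 ± 0.25 on day 15 (adjusted p = 8.15e-04). The first was lost without C1 or C2 of day 0 or C1 of day 10 (0.0511 to 0.0880), and the second held without any 1 of its libraries, at −0.89 without C1 of day 15.

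Of the 4 DEAD-box helicases, *CMS248C*, *CMR374C* and *CMR433C* differed from day 0 on day 5, and *CMQ338C* was called there with less support. *CMS248C* fell from 334, 287 and 326 CPM to 236, 146 and 150 CPM on day 5, 160, 124 and 132 CPM on day 10 and 165, 263 and 239 CPM on day 15. These falls were −0.83, −1.19 and −0.50 (edgeR adjusted p = 0.00170, 5.88e-05 and 0.0429), and only the last was lost without single libraries, namely any of day 0 or C1 or C4 of day 15 (0.0502 to 0.198) or 1B of 1 mM Ni on day 5 (0.0506). *CMR374C* rose from 55.5, 43.5 and 62.3 CPM to 65.9, 92.1 and 90.6 CPM on day 5, by 0.62 (adjusted p = 0.00487), and was 0.57 and 0.43 higher on days 10 and 15 (adjusted p = 0.00849 and 0.0453). Its day 10 call was lost without C2 of day 0 (0.0546) and its day 15 call without C1 or C2 of day 0 or C3 or C4 of day 15 (0.0746 to 0.203) or any of 14 other libraries (0.0506 to 0.0991). The day 15 call was also lost in 6 of 8 other fits (0.0503 to 0.218).

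*CMQ338C*, a helicase described as like deaD, which acts on ribosome assembly in bacteria, had 52.2, 64.0 and 54.5 CPM on day 0 and 74.5 to 88.3 CPM in the libraries of days 10 and 15. It rose by 0.52 and 0.49 on those days (edgeR adjusted p = 0.00109 and 0.00236), with both calls kept without any 1 of their libraries, and by 0.30 on day 5 (adjusted p = 0.0432), lost without C1 or C4 of day 0 or C4 or C5 of day 5 (0.104 to 0.177) or any of 8 other libraries (0.0502 to 0.109). The day 5 call of *CMQ338C* was also lost in 6 of 8 other fits, among them DESeq2 (0.0779) and limma-voom, without and with culture label as a block (0.0605 and 0.0724). Those of *CMR374C* and *CMR433C* were lost with only the compared conditions (0.0792 and 0.135). *CMR433C* was 0.44 higher on day 5 only (adjusted p = 0.0251), not without C4 of day 0 or C4 or C5 of day 5 (0.0990 to 0.118) or any of 3 other libraries (0.0507 to 0.0572). Of the retroelements, *CMJ290C* went from 4, 2 and 7 counts on day 0 to 20, 17 and 19 on day 5 and 52, 27 and 41 on day 10, with rises of 1.965 and 2.66 on the log2 scale (adjusted p = 0.00166 and 5.99e-05).

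**Figure D5:**
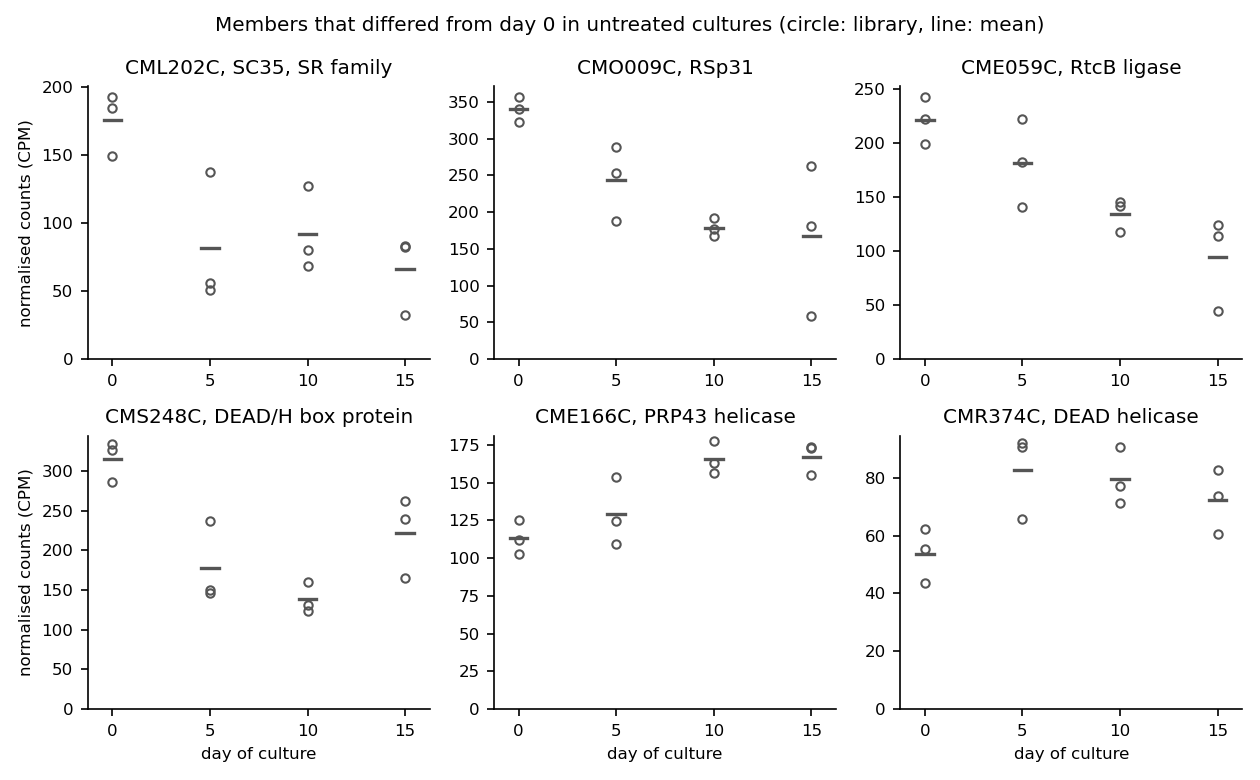
CPM of 6 members in untreated cultures by day; each circle is a library and each line the mean of 3. *CML202C*, *CMO009C*, *CME059C* and *CMS248C* were lower after day 0, and *CME166C* and *CMR374C* higher, with the lowest circles of *CMO009C* and *CME059C* on day 15 both from C1.

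Other genes of RNA metabolism, chosen by further words of the descriptions, gave a frame for the members. Words for mRNA decay or export gave 13 genes, and no description among them names mRNA export. Of these 13, 2, 1 and 2 were upregulated at 3 mM Ni on days 5, 10 and 15, and 0, 1 and 0 downregulated. For all genes the shares were 5.42%, 15% and 5.71% upregulated and 4.77%, 14.2% and 4.59% downregulated. *CMT194C*, an NMD3 family gene whose product in yeast exports the large ribosomal subunit, was upregulated on all 3 days (0.57, 0.50 and 0.45, edgeR adjusted p = 0.0124, 0.0103 and 0.0459). It was the only one of the 13 upregulated on day 10. *CMN106C*, described as like a regulator of nonsense transcript stability, was upregulated on days 5 and 15 (1.59 and 1.42, adjusted p = 0.0124 and 0.0281). Of 48 genes for other RNA-binding proteins and RNA helicases, 3, 6 and 0 were upregulated and 1, 2 and 1 downregulated. Among them was *CMK182C* for a serine/arginine-rich protein specific kinase, which phosphorylates SR proteins, at −0.65 on day 5 and −0.62 on day 10 (adjusted p = 0.04999 and 0.0282). Whether the calls of *CMT194C*, *CMN106C* and *CMK182C* hold without single libraries or in other fits is not given here. In untreated cultures 18, 17 and 15 of these 48 genes were lower than on day 0 on days 5, 10 and 15, and 1, 1 and 2 higher, with median log2 fold changes of −0.30, −0.34 and −0.25 against 0.07, 0.05 and 0.10 for the members and 0.06, 0.04 and 0.05 for all genes. Of all genes 19.4%, 18.9% and 16.6% were lower and 20.3%, 21.1% and 19.5% higher.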

How the data were processed

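The authors deposited raw counts per gene without normalization: reads went through Trimmomatic 0.39, were mapped by Hisat2 on ASM9120v1, lost optical duplicates (GATK) and were assigned, on the reverse strand, by HTSeq-count (0.9.1 in the submitters' notes). Groups, days and culture labels come from the sample labels, coordinates from the RefSeq annotation of the same assembly, in which all 54 members matched. Counts were filtered by expression, scaled with TMM and fitted in R 4.3.3 with edgeR 4.0.16 (quasi-likelihood, 1 coefficient per condition, 29 libraries, common dispersion 0.0419), with Benjamini-Hochberg adjustment. SEs come from the log2 fold change and its F statistic. DESeq2 1.42.0, limma-voom (limma 3.58.1) with and without culture label as a block, other filters and scalings, and leaving out each library were alternatives; the scripts were tested on simulated data. Named genes were the largest calls against same-day controls without overlap, members called at 3 mM on 2 days and the highest of each role. Overlap was allowed for the largest calls between the doses and in untreated cultures against day 0. Rows with too few counts and all Sm, LSm, U5, cap and poly(A) genes were also named. Other calls (*CMK254C*, *CME166C*, *CMQ077C*, *CMQ338C*, *CMQ406C*, *CMR160C*, *CMT357C*) were chosen after their values were seen. So were the remaining subunits and partners of named genes (*CME063C*, *CMH102C*, *CML103C*, *CMM048C*, *CMH233C*, *CMN095C*, *CMN231C*, *CMP054C*), *CMO312C*, and the non-members *CMK182C*, *CMN106C* and *CMT194C*. The members and lists were chosen with earlier results of these data known. No exon table was used here, so genes with introns were not separated.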

Additional observations from a re-analysis of the deposited data

How the results depend on the processing

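Of 59 calls of a member in a comparison, none reversed its direction under any alternative, 20 held without any 1 library of the compared conditions and 9 held under all alternatives. The 20 were unevenly spread. Of 17 calls at 3 mM Ni against untreated cultures 2 held in this way, both of *CMB002C*, on days 5 and 10. Of 41 calls in untreated cultures against day 0, 18 did. With DESeq2, members called numbered 1 at 1 mM Ni on day 5 and 4 between the doses on day 10. With at least 10 counts in every library they numbered 3 and 1 at 3 mM Ni on days 5 and 15. When the fit held the compared conditions alone they numbered 2, 5 and 0 at 3 mM Ni on days 5, 10 and 15, 2 between the doses on day 5, and 4 and 0 in untreated cultures of days 5 and 15 against day 0. This fit uses fewer libraries, and 40 of the 59 calls were lost in it. DESeq2 lost 3, limma-voom 7, limma-voom with the block 8, edgeR with DESeq2's size factors 4, the minimum of 10 counts 5, nuclear genes only 2 and no filter beyond 1 count 1. Without the 7 rows matched by the word dead, which was chosen after seeing the data, they numbered 3 and 1 at 3 mM Ni on days 5 and 15. With limma-voom, 2 members were called between the doses on day 10, and also 2 with culture label as replicate block. The member counts of these other fits were not set beside those of all genes, so they do not set the members apart. Of 18 pairs of libraries with the same culture label, 2 had a correlation of their deviations over 0.1 (median −0.041). Of 360 pairs that differed in culture label and condition, 104 did (median −0.0023). Deviations were taken within groups of 2 or 3 libraries, so this cannot show whether 1 culture was sampled on several days. The labels were not used to pair libraries in the main fit.

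Leaving out each library in turn gave 0 to 14 calls at 1 mM Ni on day 5, 1 to 7, 1 to 12 and 0 to 6 at 3 mM Ni on days 5, 10 and 15, 0 to 1 and 0 to 7 between the doses on days 5 and 10, 6 to 18, 7 to 14 and 9 to 15 in untreated cultures, and 0 to 2 for the change from day 10 to 15. The share of all genes called moved in these fits too. It was 29.7% at 1 mM Ni on day 5 without untreated C3 of that day. At 3 mM Ni it was 4.46% without untreated C4 and 24.1% without untreated C3 on day 5. On day 10 it was 15.2% without 3A and 36.6% without untreated C1 of day 15. On day 15 it was 1.19% without 3D and 13.6% without untreated C3 of day 5. Without 3C of day 10 it was 18.3% between the doses on day 10 and 9.6% for the change. The difference in the share of counts at 3 mM Ni on day 10, −0.0207 percentage points, was −0.0133 over all counts, −0.0132 without the most abundant member and −0.0131 without the 7 rows. With 2 or 3 libraries per group and log2 standard errors near 0.20, changes of that size in single members were not detectable.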
